A study of Homo sapiens with 4 samples.

Results

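Chromatin modifiers and remodellers are the enzymes, and the proteins that work beside them, that write, erase and read marks on histones and DNA or move nucleosomes with energy from ATP. The genes described here were those on the array whose symbol, updated to its current form, begins as the families KAT, HDAC, SIRT, SMARC, KDM, KMT, SETD, CHD, BRD, DNMT, NCOA, NCOR, MTA, EZH or ARID do, together with EP300, CREBBP and SKI. Of 4603 gene symbols on the array 56 matched, 54 of these had a value on at least 2 arrays and 48 on all 4. Those 48 were tested. The other 6 had no value on 1 or 2 arrays, and NCOA7 and SMARCC2 had no value at all. A gene's value averages its filled features on an array, so it can rest on different features from array to array.

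The RNA came from OCI-Ly10, a cell line derived from a human B-cell lymphoma (diffuse large, activated subtype), in which MYC was knocked down to find genes that respond to it. Cells electroporated with a pool of siRNAs against MYC at 4 uM were compared with control cells on arrays with both RNAs, the MYC siRNA sample in Cy5 and the control in Cy3. The controls were electroporated with a nonspecific siRNA against Renilla luciferase at 4 uM (8 h and 24 h) or in buffer with no siRNA (6 h and 24 h), and each of these 4 combinations was measured on 1 array. Values are log2 ratios, taken as MYC siRNA over control. The base of the logarithm and the direction are likely rather than stated, and the array ratios hold no level, so the presence of B-cell markers could not be checked.

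Acetyltransferases such as EP300, CREBBP and the KAT enzymes add acetyl groups to histone lysines, which goes with open chromatin and transcription, and deacetylases of the HDAC family, held in corepressor complexes, remove them. Methyltransferases and demethylases do the same for methyl groups, while the SMARC and CHD proteins and some ARID proteins belong to machines that slide or eject nucleosomes. MYC is known to recruit acetyltransferase complexes and remodellers to the genes it binds, and its preferred DNA element is the E-box CACGTG.

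MYC itself was below 0 on every array, at -0.94 (8 h) and -0.35 (24 h) against control siRNA and -1.26 (6 h) and -1.03 (24 h) against no siRNA. MYC was thus least reduced at 24 h with control siRNA as the comparison. The sign of MYC helped to set the direction of the ratios and is no separate evidence of knockdown. Over the 6798 rows with a value on all arrays the median of the mean log2 ratios was -0.003, and the spread of values was widest on the 24 h array against no siRNA (SD 0.416, against 0.262 to 0.298 on the others).

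Of the 48 chromatin genes, 2 fell with MYC siRNA (KAT6B and HDAC2), 2 rose (KDM3A and BRD10) and 44 did not pass (limma, adjusted p under 0.05 over all rows). The share called was 8.33%, against 15.8% of all rows. By direction the background was 10.2% lower and 5.56% higher. The median of the 48 means was -0.02, beside -0.003 for all rows, and 42 of the 48 lay within 0.25 of 0. At an unadjusted p under 0.05, 5 were lower and 3 higher, beside 19.6% and 15.8% of all rows (35.4% together). All values had 1 sign for 15 of the 48 (31.2%), 9 below and 6 above 0, beside 42.6% of all rows (23.3% below and 19.4% above). Over the 3954 named genes alone 14.8% were called, 9.71% lower and 5.13% higher. As a class, these genes were therefore called no more often than the rest of the table.

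The promoters of the 4 genes that passed are shown because MYC acts through DNA elements near gene starts. Each is the stretch of 250 bases before the most upstream RefSeq start (build GRCh38.p14), 5′ to 3′ on the gene's strand, with any E-box-like CANNTG in capitals.
KAT6B (chr10:74825005-74825254, plus strand): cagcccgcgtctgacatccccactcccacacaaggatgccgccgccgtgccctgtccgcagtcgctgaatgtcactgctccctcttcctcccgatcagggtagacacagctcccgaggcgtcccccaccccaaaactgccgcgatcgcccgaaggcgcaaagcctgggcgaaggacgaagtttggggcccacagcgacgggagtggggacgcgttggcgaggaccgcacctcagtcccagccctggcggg
HDAC2 (chr6:113971149-113971398, minus strand): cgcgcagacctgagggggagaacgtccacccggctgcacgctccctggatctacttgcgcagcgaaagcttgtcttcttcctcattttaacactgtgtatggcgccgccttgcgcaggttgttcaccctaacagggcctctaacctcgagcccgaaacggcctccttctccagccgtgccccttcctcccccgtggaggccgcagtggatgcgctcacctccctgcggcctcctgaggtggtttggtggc
KDM3A (chr2:86441121-86441370, plus strand): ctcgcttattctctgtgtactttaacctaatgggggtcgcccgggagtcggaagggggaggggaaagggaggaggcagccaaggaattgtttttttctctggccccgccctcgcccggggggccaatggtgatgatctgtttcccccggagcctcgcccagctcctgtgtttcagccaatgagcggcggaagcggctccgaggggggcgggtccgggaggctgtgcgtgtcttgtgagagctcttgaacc
BRD10 (chr9:6008483-6008732, minus strand): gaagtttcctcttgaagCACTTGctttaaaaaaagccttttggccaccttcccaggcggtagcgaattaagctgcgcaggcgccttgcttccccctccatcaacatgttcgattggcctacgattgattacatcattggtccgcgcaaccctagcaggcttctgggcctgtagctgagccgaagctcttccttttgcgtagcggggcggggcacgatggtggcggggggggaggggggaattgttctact

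CACGTG, which reads the same on both strands, was in 0 of the windows of these 4 genes (3 for KAT6B, 2 for KDM3A and 1 each for HDAC2 and BRD10). The looser CANNTG, which includes CACGTG, was seen once among the windows printed, as CACTTG in BRD10, while 61.8% of all 35116 RefSeq windows of that length hold it. Windows were found for 49 of the 56 genes, and CACGTG was in 3 of their 82 windows (3.66%, against 6.34% of all windows). These were the windows of the demethylase genes KDM4C and KDM4B and of the methyltransferase gene SETD6, given here with CACGTG in capitals because they carry the exact element.
KDM4C, first match (chr9:6757898-6757927, plus strand): tgtttgtaagccCACGTGactcaccaagtg
KDM4C, second match (chr9:6757930-6757959, plus strand): ggccccagcggtCACGTGacggcgcgcgcg
SETD6 (chr16:58515439-58515468, plus strand): caaaacaggcacCACGTGgttccggcgccg
KDM4B (chr19:4968863-4968889, plus strand): gtcagcgggCACGTGggtgggcgccgg

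None of these 3 genes was called: SETD6 averaged -0.06 and KDM4C 0.09, and KDM4B was measured on 2 arrays. A match or its absence describes these letters in these windows and does not show where MYC binds.

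Acetyltransferases and coactivators held the largest fall. KAT6B, the MYST-family acetyltransferase MORF, was at -0.60 (8 h) and -0.97 (24 h) with control siRNA as the comparison and at -0.75 (6 h) and -1.11 (24 h) against no siRNA. It was below 0 on all arrays and lower at 24 h than at the earlier time against each control. The mean was -0.86 ± 0.23 (SD, n = 4), or 55.2% of control, with a 95% interval of 47.0% to 64.8% and an adjusted p of 0.00946 in limma. It was measured by 1 feature.

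The other 8 acetyltransferases and coactivators did not pass, and their means ran from -0.09 to 0.04. KAT6A, the MOZ enzyme and closest relative of KAT6B, had -0.20 (8 h) and 0.01 (24 h) with control siRNA, then 0.05 (6 h) and -0.19 (24 h) with no siRNA, a mean of -0.08 ± 0.13 (SD, n = 4; 5 features). KAT6B was below KAT6A on every array, by a mean of -0.78 ± 0.26 (SD, n = 4), with an exact two-sided sign-flip p of 0.125, the smallest that 4 arrays allow. This and the other pairs of related genes below, 7 pairs in all, were chosen after their values were seen, and each reached that same p, also after adjustment over the 7.

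EP300, the acetyltransferase p300, averaged -0.09 ± 0.13 with a 95% interval from -0.29 to 0.11. Its paralog CREBBP averaged -0.003 ± 0.06, with an interval from -0.19 to 0.18 (SD, n = 4 each). KAT2B, the PCAF enzyme, was at 0.24 on the 8 h array and between -0.30 and -0.09 on the other 3. That pattern mixes features with empty cells. The only KAT2B feature on all arrays had 0.36 (8 h) and 0.45 (24 h) against control siRNA. Against no siRNA it had -0.43 (6 h) and -0.34 (24 h). The nuclear receptor coactivator genes NCOA1 (0.04), NCOA2 (0.03) and NCOA5 (-0.03) stayed near 0 in the mean, as did NCOA4 (-0.01), better known for its part in the turnover of ferritin. NCOA4 had both signs at each time, -0.29 at 8 h but 0.20 at 6 h, then 0.22 and -0.18 on the later arrays.

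**Figure D1:**
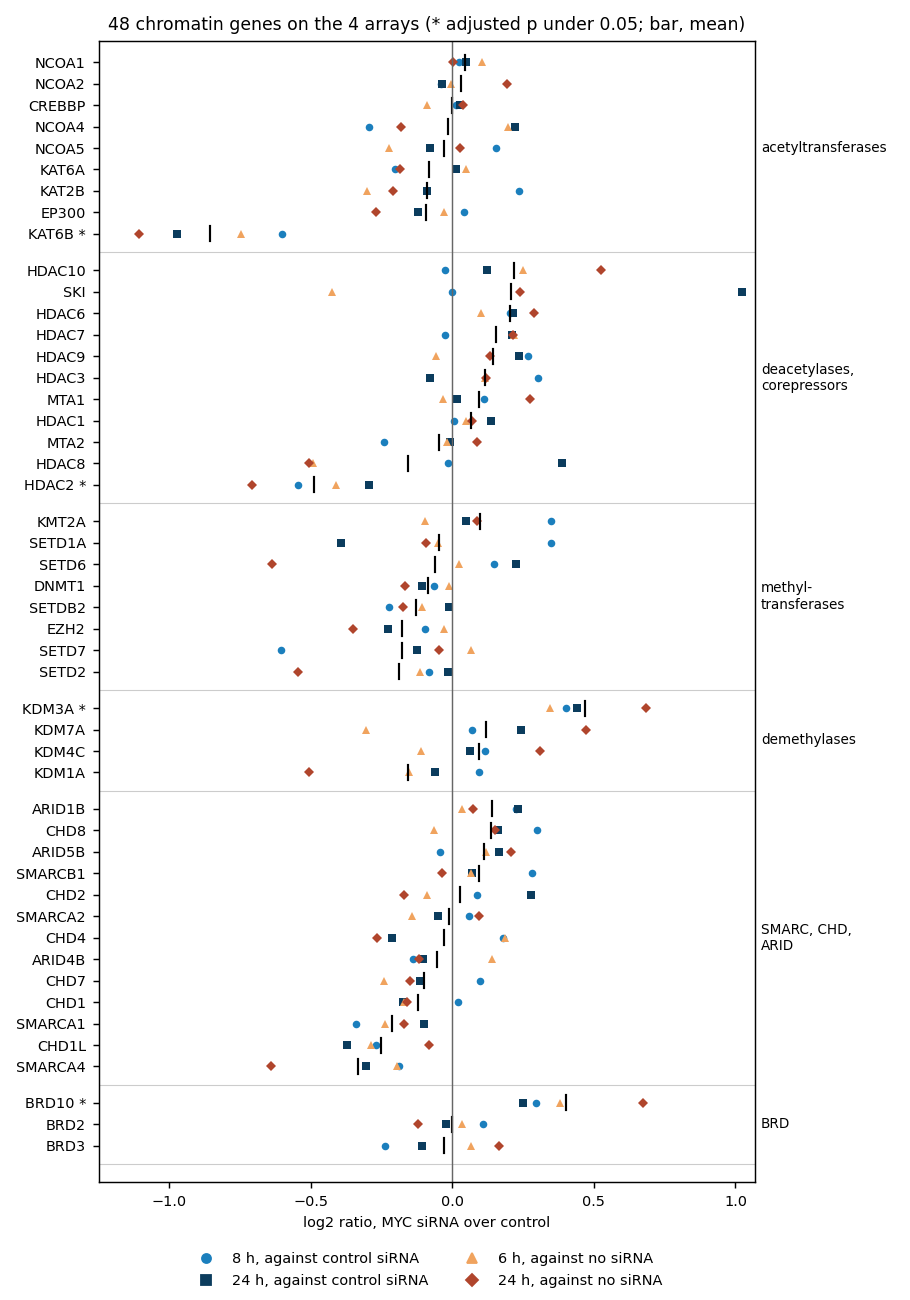
Log2 ratio of MYC siRNA over control (x axis) for the 48 chromatin genes with a value on all 4 arrays, grouped by role and ordered by mean (bar), with 1 symbol per array and a star on genes past the limma threshold. KAT6B stands apart at -0.60 to -1.11, while 42 of the 48 means lie within 0.25 of 0.

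Among deacetylases and corepressors, HDAC2 fell. HDAC2 is a class I deacetylase and, like HDAC1, a catalytic subunit of the SIN3, NuRD and CoREST complexes. Its values were -0.55 (8 h) and -0.30 (24 h) against control siRNA and -0.41 (6 h) and -0.71 (24 h) against no siRNA, all below 0 with no order by time shared by the controls. The mean of -0.49 ± 0.18 (SD, n = 4) equals 71.2% of control (95% interval 61.5% to 82.6%; limma adjusted p = 0.0192). Of its 2 features, 1 had values on all arrays (mean -0.49) and 1 on the arrays against control siRNA only (-0.48 and -0.38).

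HDAC1 did not follow, at 0.01, 0.14, 0.05 and 0.07, a mean of 0.06 ± 0.06 with an interval from -0.12 to 0.25. HDAC2 was below HDAC1 on every array, by a mean of -0.55 ± 0.16 (SD, n = 4; exact sign-flip p = 0.125). HDAC3, another class I enzyme and the deacetylase of the NCOR complex, averaged 0.11 ± 0.16. HDAC8, also of class I, had like values on both arrays against no siRNA (-0.49 and -0.50) and was at -0.02 and 0.39 against control siRNA.

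Of the 11 genes in this role 8 had a mean above 0, beside a median of -0.003 over all rows, and 0 of these 8 passed. HDAC6, the cytoplasmic deacetylase of tubulin, was above 0 on each array (0.20, 0.21, 0.10 and 0.29), averaging 0.20 ± 0.08 (SD, n = 4; limma adjusted p = 0.119). HDAC10 had the highest mean, 0.22 ± 0.23, and ran from -0.02 at 8 h to 0.53 on the 24 h array against no siRNA. The class II genes HDAC7 and HDAC9 averaged 0.15 and 0.14. No feature of HDAC9 had a value on all arrays, so its values mix features with means of 0.42, 0.29 and -0.13. The NuRD subunits MTA1 and MTA2 were at 0.09 and -0.05.

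**Figure D2:**
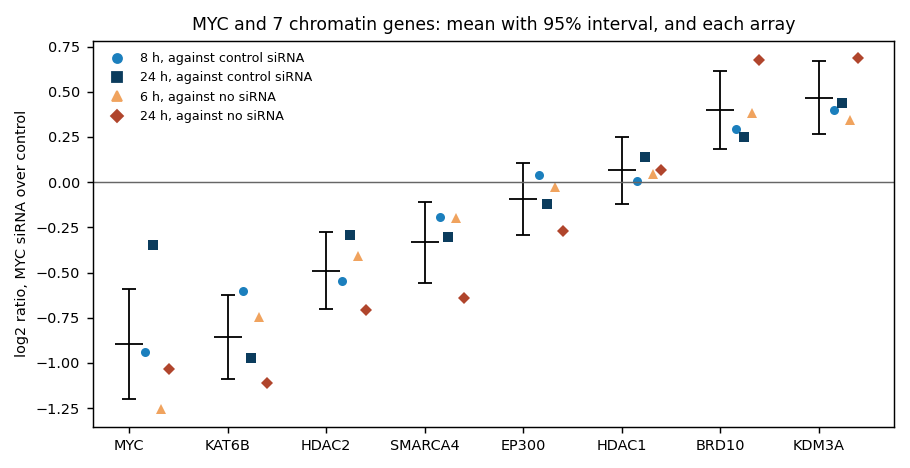
Log2 ratio of MYC siRNA over control (y axis) for MYC and 7 chromatin genes: the horizontal bar and whiskers give the mean and its 95% interval from limma, and the symbols beside it the 4 arrays. KAT6B, HDAC2, BRD10 and KDM3A keep 1 sign on all arrays with intervals clear of 0, while those of EP300 and HDAC1 span it. SMARCA4 also keeps 1 sign with an interval clear of 0 but did not pass (limma adjusted p = 0.0518).

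None of the 8 histone and DNA methyltransferases passed, with means from -0.19 to 0.10 and 7 of them below 0. At an unadjusted p under 0.05 the count was also 0. EZH2, the catalytic subunit of Polycomb repressive complex PRC2, was below 0 on each array (-0.10, -0.23, -0.03 and -0.35), with a mean of -0.18 ± 0.14 (SD, n = 4; limma adjusted p = 0.186). DNMT1, which copies DNA methylation at replication, was at -0.09 ± 0.07 with 5 features. SETD2, a methyltransferase that travels with elongating RNA polymerase, had the lowest mean (-0.19), with -0.55 on the 24 h array against no siRNA and -0.11 to -0.02 on the others. KMT2A, the MLL gene, had the highest (0.10), with 0.35 at 8 h and -0.10 at 6 h. These early values average different features. Those empty at 8 h had -0.485 and -0.139 at 6 h, and those on all arrays lay between -0.32 and 0.253 there.

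Demethylases gave the clearest rise. KDM3A, a JmjC-domain demethylase of histone lysines, had 0.40 (8 h) and 0.44 (24 h) with control siRNA and 0.35 (6 h) and 0.69 (24 h) against no siRNA. All values were above 0, and that of 24 h against no siRNA stood highest. The mean was 0.47 ± 0.15 (SD, n = 4), or 138% of control (95% interval 120% to 159%; limma adjusted p = 0.0192), from 1 feature.

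The other 3 demethylases on all arrays did not pass. KDM1A, the flavin-dependent demethylase LSD1 of the CoREST complex, ran from 0.10 to -0.51 with a mean of -0.16 ± 0.26 (SD, n = 4). KDM4C and KDM7A averaged 0.09 and 0.12. KDM3A was above both of these, which are JmjC enzymes like it, on each array, by a mean of 0.38 ± 0.07 over KDM4C and of 0.35 ± 0.21 over KDM7A (SD, n = 4; exact sign-flip p = 0.125 each). Over KDM1A, which is of another family and had the lowest mean of the role, the difference was 0.63 ± 0.39 (SD, n = 4; exact sign-flip p = 0.125).

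Demethylase genes also made up 3 of the 6 genes that lacked a value on 1 or 2 arrays. KDM6B, the demethylase JMJD3, was at 0.45 (8 h) and 0.84 (24 h) with control siRNA and had no value against no siRNA, while KDM4B was at 0.28 (6 h) and 0.67 (24 h) against no siRNA only. KDM2B, of a variant Polycomb complex, was at -0.21 (24 h against control siRNA) and -0.51 (6 h). These KDM2B values came from different features, each with a value on 1 array only. In a fit over rows with at least 2 arrays, which called 9.23% of 8509 rows (6.23% lower, 3.0% higher), KDM6B passed (limma adjusted p = 0.0464, from 2 arrays), as did ARID3A (adjusted p = 0.0348, from 3 arrays). The other 4 did not pass there. ARID3A, a DNA-binding factor of B cells that is named for its ARID domain and is not a remodeller subunit, was at 0.90, 0.51 and 0.40, with the 24 h array against no siRNA empty. SMARCAL1 was at -0.39 and 0.12 and HDAC5 between -0.01 and 0.27.

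Genes with SMARC, CHD and ARID symbols, most of them remodellers, made up the largest group, with 13 tested and 0 called. The group was set by symbol and also holds ARID4B, a subunit of SIN3 corepressor complexes, and ARID5B, a DNA-binding factor, at means of -0.06 and 0.11. In limma 3 of the 13 were lower at an unadjusted p under 0.05 (SMARCA4, CHD1L and SMARCA1) and 0 higher. Of all rows 19.6% were lower and 15.8% higher at that threshold. SMARCA4, the BRG1 ATPase of SWI/SNF complexes, had -0.19 (8 h) and -0.30 (24 h) with control siRNA and -0.20 (6 h) and -0.64 (24 h) against no siRNA. Its mean was -0.33 ± 0.21 (SD, n = 4), 79.4% of control, with a 95% interval of 67.9% to 92.8% and an adjusted p of 0.0518, just outside the threshold. It passed under 4 of 8 other ways of summarising features and fitting (adjusted p from 0.013 to 0.0694 in limma). In 1 of these 4, with features tested singly, only 1 of its 2 features passed (limma adjusted p = 0.0214, against 0.274 for the other). With time and control as terms, 4 genes were lower and 2 higher, where 29.1% of all rows were called (16.5% lower, 12.6% higher), and CHD1L and SMARCA4 were the additions.

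SMARCA2, the alternative ATPase BRM of the same complexes, was measured by 8 features and averaged -0.01 ± 0.11, and SMARCB1, their core subunit SNF5, 0.09 ± 0.13 (SD, n = 4 each). SMARCA4 lay below SMARCA2 on each array by a mean of -0.32 ± 0.29 (exact sign-flip p = 0.125). CHD1L, a remodeller recruited to sites of DNA damage, averaged -0.25 ± 0.12 (adjusted p = 0.0764 in limma) and SMARCA1, an ISWI ATPase, -0.21 ± 0.10 (adjusted p = 0.111). Both were below 0 on all arrays. CHD4, the NuRD ATPase, had 0.18 at 8 h and 0.19 at 6 h but -0.21 and -0.27 on the later arrays. Of its 3 features 1 had -0.564 and -0.88 on these later arrays, and the others lay between -0.166 and 0.154 there. The remaining means of this group lay between -0.12 (CHD1) and 0.14 (ARID1B, a subunit of SWI/SNF). The mean of ARID1B mixes features with empty cells. Its only feature on all arrays averaged -0.024, with 0.172 (8 h) and 0.233 (24 h) against control siRNA. Against no siRNA that feature had -0.097 (6 h) and -0.404 (24 h).

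Of 3 genes with a BRD symbol, BRD10 rose. Its values were 0.30 (8 h) and 0.25 (24 h) against control siRNA and 0.38 (6 h) and 0.67 (24 h) against no siRNA, again highest on the 24 h array against no siRNA. The mean was 0.40 ± 0.19 (SD, n = 4), or 132% of control (95% interval 113% to 153%; limma adjusted p = 0.029), from 1 feature. The BET proteins BRD2 and BRD3, whose bromodomains bind acetylated histones, averaged -0.0003 ± 0.10 and -0.03 ± 0.18 and did not pass. BRD10 was above BRD2 on each array, by 0.40 ± 0.27 in the mean (SD, n = 4; exact sign-flip p = 0.125).

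For the 44 genes that did not pass, the width of the intervals sets what the arrays could show. The 95% interval lay inside -0.5 to 0.5 (70.7% to 141% of control) for 42 of them, SMARCA4 and SKI being the exceptions, and inside -0.25 to 0.25 for 10. With 1 array left out, residual degrees of freedom fall from 3 to 2 and the count of called genes from 4 to 2 when the 8 h array was dropped, to 0 for 24 h against control siRNA, to 0 for 6 h and to 1 for 24 h against no siRNA, while the share over all rows fell from 15.8% to 6.49%, 0.0588%, 0 and 3.44%. The means of the 4 genes kept their sign each time: KAT6B stayed between -0.94 and -0.77, HDAC2 between -0.55 and -0.42, KDM3A between 0.40 and 0.51 and BRD10 between 0.31 and 0.45.

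Several of these genes were represented more than once on the array, and the separate features did not always move together. Of 110 features on all arrays, 10 were lower and 4 higher when each was tested by itself (12.7%, against 19.4% of 10161 features). MTA1 had 1 feature lower (-0.32, -0.34, -0.27 and -0.76) and another higher (0.19, 0.17, 0.34 and 0.84), with adjusted p values of 0.0258 and 0.0497 in limma, while its other 2 averaged 0.15 and 0.25. NCOA2 likewise had 1 feature at -0.35 (adjusted p = 0.0441) and 1 at 0.41 (adjusted p = 0.0338). For both genes the means of 0.09 and 0.03 come from features of opposite sign.

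Features that passed by themselves without their gene passing were also found for SETDB2 (-0.50, with its other 3 between -0.21 and 0.25), SMARCA4 (-0.52, the other -0.15), CHD1 (-0.45), SETD2 (-0.38), CHD1L (-0.36) and CREBBP (-0.34, with the other 4 on all arrays between -0.07 and 0.23). Feature means lay 0.5 or more apart for 10 genes. Besides MTA1, NCOA2, SETDB2, CHD1 and CREBBP these were ARID4B, HDAC9, KMT2A, SMARCA2 and SKI. Of the 12 tested genes with 1 feature 3 passed, and of the 36 with several 1 did. Over all named genes 19.5% of those with 1 feature and 12.1% of those with several passed.

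**Figure D3:**
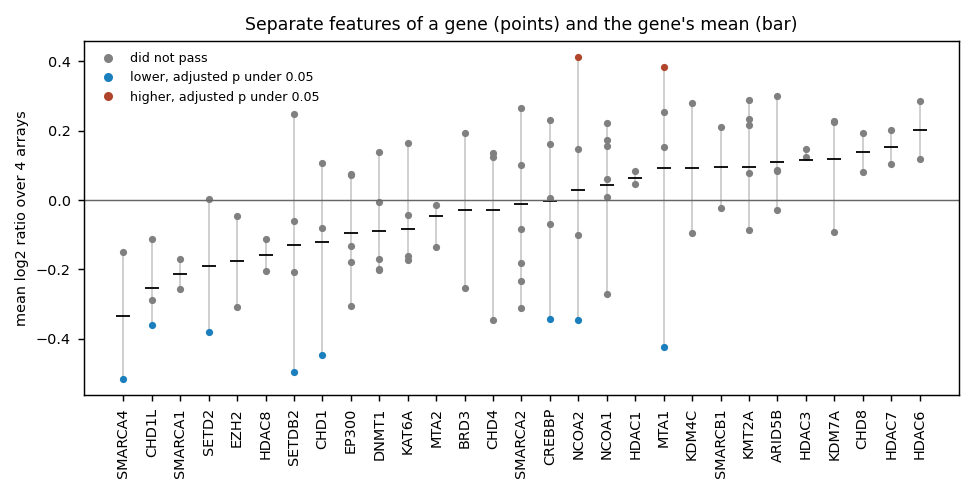
Mean log2 ratio over 4 arrays (y axis) of each feature with a value on every array, for genes with at least 2 such features, ordered by the gene's mean (black bar). Blue and red points passed limma by themselves, and MTA1 and NCOA2 have points of both colours.

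Time and the kind of control were compared in a model with both as terms. Of the 48 genes, 0 differed between 24 h and the early arrays and 0 between the controls (limma, adjusted p under 0.05), where 0.118% and 0.0883% of all rows did. An unadjusted p under 0.05 was found for 3 genes in each, where 10.1% of all rows had one. By time 1 was lower and 2 were higher (6.08% and 4.03% of all rows), and by control 0 were lower and 3 higher (3.69% and 6.38%). The standard error of a difference by time had a median of 0.186 over the 48 genes.

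SKI, a corepressor of SMAD signalling, had the largest difference by time, 0.84 (SE 0.19; limma adjusted p = 0.0777). Its values were 0.00 and 1.02 at 8 h and 24 h against control siRNA and -0.43 and 0.24 at 6 h and 24 h against no siRNA. Empty cells differ between these arrays: 1 feature was on all 4, at -0.02, 0.05, 0.01 and 0.24, another had 0.02 and 1.99 against control siRNA only, and the last had -0.86 at 6 h only. With only the feature present on all arrays, the mean was 0.07 instead of 0.21 and the difference by time 0.15, while the difference by control turned from 0.61 to -0.11.

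KDM7A (0.48) and CHD4 (-0.42) were the others with an unadjusted p under 0.05 by time. For KDM7A the difference was 0.775 when either array against control siRNA was left out and 0.175 when either against no siRNA was. KAT6B, the gene that fell most, was lower at 24 h by a further -0.37 (SE 0.18; adjusted p = 0.521 in limma), which became -0.105 with arrays scaled to 1 spread. By control, HDAC8 was higher against control siRNA than against no siRNA by 0.68 (SE 0.19; adjusted p = 0.125), with both its features showing it, SKI by 0.61 and SETD6 by 0.49. SETD6 was at -0.64 on the 24 h array against no siRNA and between 0.02 and 0.23 on the others, and its difference was 0.124 when either 24 h array was left out and 0.865 when either early array was. The labels name no batch, and one that went with the kind of control could not be told apart from it. MYC itself lay 0.50 higher against control siRNA (limma adjusted p = 0.313).

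**Figure D4:**
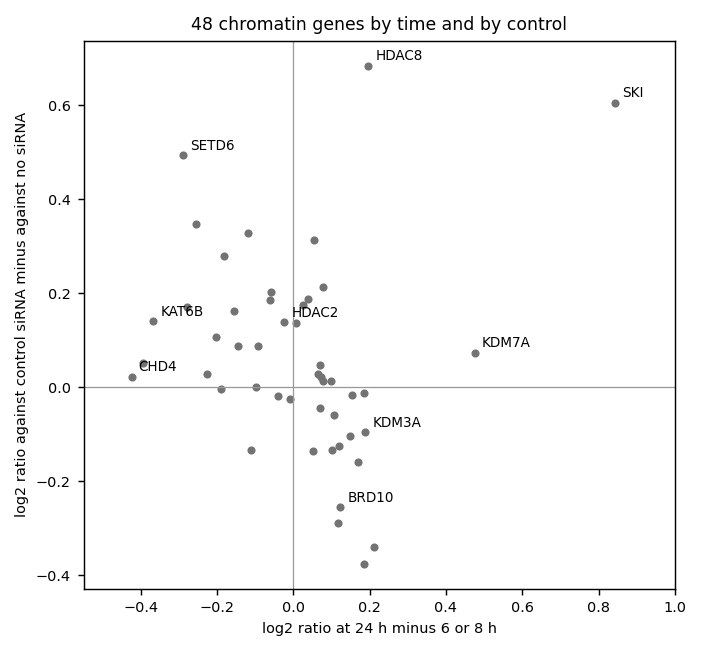
Difference in log2 ratio between 24 h and the early arrays (x axis) against the difference between the arrays with control siRNA and those with no siRNA (y axis) for the 48 genes. SKI lies farthest right (0.84, 0.61) and HDAC8 highest (0.68), and 0 genes passed limma's adjusted threshold on either axis.

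Other chromatin genes, some of them partners of these proteins, were read from 6 further lists. Of 69 such genes on all arrays, 13 fell, 1 rose and 55 did not pass (20.3% called, beside 15.8% of all rows), with a median of -0.07. By direction 10.2% of all rows were lower and 5.56% higher, and the counts by list below stand beside these shares. The lists were chosen with earlier results of these data known. Among TIP60/NuA4 and SAGA partners 3 of 11 fell: ACTL6A, an actin-like subunit of both TIP60 and SWI/SNF complexes (-0.41 ± 0.23), SUPT3H of SAGA (-0.38 ± 0.13) and EP400, the ATPase of the TIP60 complex (-0.29 ± 0.05; SD, n = 4 each). EP400 varied little, from -0.34 to -0.25 over the arrays. The list's median was -0.16.

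Of 8 SIN3, NuRD and CoREST partners, RCOR1, the CoREST scaffold that binds HDAC1, HDAC2 and KDM1A, fell (-0.44, -0.40, -0.16 and -0.66; mean -0.41, limma adjusted p = 0.0284) and 7 did not pass. Of 9 Polycomb proteins BMI1, of repressive complex PRC1, averaged -0.48 ± 0.18 and PCGF5, its relative, -0.33 ± 0.18 (SD, n = 4 each), and both fell. WDR5, the shared subunit of MLL complexes that also binds MYC, was the 1 of 13 further methyltransferase genes and cofactors to fall, at -0.26, -0.66, -0.25 and -0.22 (mean -0.35, adjusted p = 0.0452 in limma).

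In the list of other remodelling subunits 2 of 13 fell and 1 rose. HMGB1, a DNA-bending protein, averaged -0.66 ± 0.20 and RSF1, partner of an ISWI ATPase, -0.40 ± 0.31, while INO80, the ATPase of the INO80 complex, rose (0.36, 0.54, 0.76 and 0.47; mean 0.53, limma adjusted p = 0.0173). Histone chaperones, methyl-DNA readers and TET enzymes had 4 of 15 lower and 0 higher, with a median of -0.20. These were the chaperone NPM1 (-0.63), CBX3, the heterochromatin protein HP1 gamma (-0.58 ± 0.27), the DNA glycosylase TDG (-0.44 ± 0.12) and the histone chaperone HIRA (-0.37 ± 0.17; SD, n = 4 each).

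**Figure D5:**
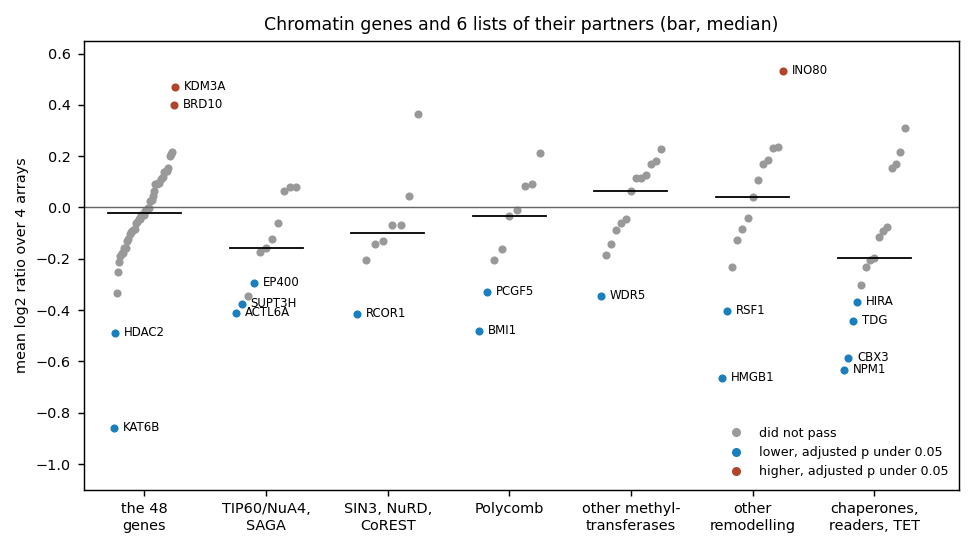
Mean log2 ratio over 4 arrays (y axis) of the 48 chromatin genes and of 6 lists of other chromatin genes, partners among them. Each gene is 1 point and each bar a median, with genes past limma's threshold coloured and named. Medians run from -0.20 (chaperones, readers and TET enzymes) to 0.06 (other methyltransferases), with -0.02 for the 48 genes.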

How the data were processed

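Log2 ratios were used as the authors deposited them, with a single value for a feature on an array. How background was corrected and arrays normalized, which log base and direction apply and why cells are empty is not given in the sources used here. Values were signed, centred near 0 and taken as log2 of Cy5 (MYC siRNA) over Cy3 (control), dyes per the labels, with 0 arrays swapped. Symbols came from the platform annotation and were brought up to date with RefSeq (GRCh38.p14) by Entrez ID. Of 15154 features, 10165 had 1 symbol. Filled features of a gene were averaged array by array, which gave 6798 rows on all 4 arrays (3954 named genes, 2844 single features).

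The mean over arrays was tested against 0 with limma 3.58.1 (lmFit, eBayes; R 4.3.3), and time and control kind as terms of a second model, with Benjamini-Hochberg adjustment over all rows at 0.05. Prior degrees of freedom were 6.31 and 17.5, beside 3 and 1 residual. The code was tested on simulated data. No label says that cultures were separate, so p-values reflect only how these arrays vary, which may be technical. Named were all genes that passed, the lowest and highest of each role, key enzymes and genes with feature means 0.5 or more apart. From the 6 further lists the genes that passed were named. Others are named so that counts can be read, chosen after their values were seen. Members and lists were chosen with earlier results of these data known. Alternatives were centring, scaling, other summaries of features, rows with empty cells, other fits and left-out arrays.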

Additional observations from a re-analysis of the deposited data

Results flagged for a closer look

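On 4 of the 48 genes 1 array stood apart from the other 3 by more than Dixon's 95% critical value for the gap over the range. HDAC7 was at -0.0275 on the 8 h array, with the others between 0.21 and 0.22. These values average 2 features that disagreed. At 8 h and 24 h against control siRNA, then 6 h and 24 h against no siRNA, 1 had -0.34, 0.315, 0.028 and 0.417. The other had 0.285, 0.107, 0.406 and 0.014. CHD1 was at 0.0213 on the 8 h array, with the others between -0.17 and -0.16. A feature of CHD1 had values only against no siRNA (-0.289 at 6 h and 0.192 at 24 h). ARID4B was at 0.14 on the 6 h array, with the others between -0.14 and -0.10. Its only feature on all arrays had 0.413 (8 h) and -0.081 (24 h) against control siRNA and 0.329 (6 h) and -0.227 (24 h) against no siRNA. In that feature the 6 h array did not stand apart. NCOA2 was at 0.19 on the 24 h array against no siRNA, with the others between -0.04 and -0.004. In theory chance flags about 5% of such groups, and the share of all rows flagged by this rule was not counted. None of these 4 genes passed the test for MYC siRNA.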

How the results depend on the processing

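For MYC siRNA against control no further pairing was possible because the arrays form 1 group. Each ratio already sets a MYC siRNA sample against its control on the same array. The model that adds time and control called 6 genes for MYC siRNA. Its comparison by time sets each 24 h array against the early array with the same kind of control. The count of 4 changed genes was 4 to 6 under 7 of 8 alternatives that kept all arrays. Those 7 called 9.23% to 29.1% of all rows. KAT6B, HDAC2, KDM3A and BRD10 passed under each of the 8. KAT6B, KDM3A and BRD10 have 1 feature each, so other summaries of features left their values unchanged. With each feature tested singly, 12 genes had a called feature, 10 of them lower and 4 higher. A gene with several features could be counted through any of them. By feature the share was 12.7%, beside 19.4% of all features. With time and control as terms 4 were lower, where 16.5% of all rows were. Over rows with at least 2 arrays 4 were higher, where 3.0% of those rows were, KDM6B and ARID3A being the additions. Leaving out 1 array gave 0 to 2 changed genes, with 0 to 1 lower and 0 to 1 higher, where 0 to 6.49% of all rows were called. Of these 4 fits KAT6B passed in 2, KDM3A in 1, and HDAC2 and BRD10 in 0. By time, the count of 0 became 1 with centred arrays (SKI), with the median over features (SKI) and with single features (KDM7A). In turn, 0.897%, 1.44% and 0.728% of all rows were called there. By control the count of 0 became 1 with the median over features (HDAC8), where 2.38% of all rows were called. Tests by time and control were not run with an array left out, when no residual degrees of freedom remain. No dye was swapped and no signal over background was at hand, so dye bias and dim features of single genes cannot be assessed.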
